A study of Mus musculus with 8 samples.

Results

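The genes described here are those annotated as small nuclear, small nucleolar, small Cajal body or miscellaneous RNA (types snRNA, snoRNA, scaRNA and misc_RNA of GENCODE vM21, GRCm38). Members were chosen by their raw counts: a gene was kept if its sum over the 8 libraries, both genotypes together, reached 40. This gave 147 members of 3505 genes of these types in the count table, which holds 52636 genes in all. They comprised 38 snRNA genes, 90 snoRNA genes, 4 scaRNA genes and 15 misc_RNA genes. By their symbols, 30 of the snoRNA genes were of box C/D type and 14 of box H/ACA type, and 46 had only a clone-based symbol that gives no type.

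The libraries came from S0 cells, the lineage-negative, CD71-negative and Ter119-negative sorted subset of mouse fetal liver at E12.5, labelled as erythroid precursors. There were 4 wild-type (WT) libraries and 4 libraries from embryos lacking both Vps13a and Vps13c (DKO), 2 genes for lipid transfer proteins found at membrane contact sites. The Vps13a allele had lost its exon 6 in the whole body through a β-actin-Cre, and the Vps13c allele was a constitutive knockout. The mice were C57BL/6J. DKO embryos came from intercrosses of Vps13a+/-/Vps13c-/- parents. Such litters hold no embryo with a wild-type Vps13c allele, so litter and genotype cannot be told apart. The sources used here do not state that each library is a separate embryo, and p-values then measure only the spread between libraries. RNA was copied with a low-input template-switching kit from 200 pg to 50 ng of total RNA, and the libraries were labelled as polyadenylated RNA.

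Small nuclear RNAs are the RNA cores of the spliceosome: U1 pairs with the 5′ splice site, U2 with the branch point, U5 holds the exons together, and U12 takes the place of U2 in the minor spliceosome. U1, U2, U5 and U12 are transcribed by RNA polymerase II from genes of their own and end without a poly(A) tail, while U6 and 7SK are made by RNA polymerase III. Most mammalian snoRNAs are instead cut from introns of other genes. Box C/D snoRNAs guide 2′-O-methylation and box H/ACA snoRNAs guide pseudouridylation of ribosomal RNA. U3, U8 and U13 are C/D RNAs with genes of their own, U3 and U8 acting in cleavage of the ribosomal RNA precursor. The mature forms of these RNAs are not polyadenylated. In erythroid precursors, which grow and divide fast, splicing and ribosome synthesis both draw on them.

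The sequences of 10 members on which the results turn are given first. They were read from GENCODE vM21 transcripts (GRCm38) and are written as DNA, 5′ to 3′ on the strand of the RNA, in lower case. The 3 spliceosomal RNAs come from single-locus or multicopy genes of their own. Capitals mark the letters ATTTNTG, a form of the Sm site on which the Sm protein ring assembles. The search covered the RNA strand alone, and the letters were found in 15 of 20 U1, U2, U5 and U12 members and in 20.5% of 1383 annotated snRNA genes. Rnu1a1 lies at chr11:87422867-87423030 (+) in an intron of Tex14, Rnu2-10 at chr11:101658238-101658428 (+) outside annotated genes, and Rnu12 at chr15:83149644-83149794 (+) outside annotated genes.
Rnu1a1: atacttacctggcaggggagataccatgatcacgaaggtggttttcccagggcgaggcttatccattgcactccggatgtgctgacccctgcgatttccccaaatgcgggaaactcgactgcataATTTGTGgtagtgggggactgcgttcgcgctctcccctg
Rnu2-10: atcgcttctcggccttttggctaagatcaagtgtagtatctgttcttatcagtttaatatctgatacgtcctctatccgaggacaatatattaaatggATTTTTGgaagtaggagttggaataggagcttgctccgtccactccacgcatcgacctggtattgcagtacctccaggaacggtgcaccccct
Rnu12: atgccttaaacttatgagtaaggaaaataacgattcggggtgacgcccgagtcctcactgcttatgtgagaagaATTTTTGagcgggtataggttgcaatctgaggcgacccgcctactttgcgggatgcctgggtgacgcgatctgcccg

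The next 6 are snoRNAs, set side by side so that those with genes of their own can be read against those from introns. In the C/D type, capitals mark box C (TGATGA within the first 25 bases) and box D (CTGA within the last 15). Rnu3a and Snord118 hold the letters tgatga beyond the first 25 bases, left in lower case. The missing capitals therefore do not show that box C is absent from them. Box D was found in 29 and box C in 17 of the 30 C/D members, against 31.4% and 21.8% of all 1507 annotated snoRNA genes. In the H/ACA type, capitals mark ACA placed 3 bases before the end, found in 12 of 14 H/ACA members and 18.3% of all annotated snoRNA genes. Rnu3a lies at chr10:40258467-40258679 (+) and Snord118 (U8) at chr11:69073427-69073561 (+), both outside annotated genes. Snord32a at chr7:45127382-45127464 (-), Snord34 at chr7:45126601-45126670 (-) and Snord35a at chr7:45126346-45126435 (-) sit in separate introns of the ribosomal protein gene Rpl13a. Snora73b, at chr4:132352322-132352526 (-), sits in an intron of Rcc1.
Rnu3a: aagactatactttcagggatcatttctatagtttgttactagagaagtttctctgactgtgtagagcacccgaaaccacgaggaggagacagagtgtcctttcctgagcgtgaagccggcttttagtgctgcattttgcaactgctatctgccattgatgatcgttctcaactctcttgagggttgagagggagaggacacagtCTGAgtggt
Snord118: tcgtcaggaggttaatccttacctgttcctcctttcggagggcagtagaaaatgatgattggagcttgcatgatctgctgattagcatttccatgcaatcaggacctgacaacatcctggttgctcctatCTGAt
Snord32a: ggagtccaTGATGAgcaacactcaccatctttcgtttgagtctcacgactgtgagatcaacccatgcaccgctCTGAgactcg
Snord34: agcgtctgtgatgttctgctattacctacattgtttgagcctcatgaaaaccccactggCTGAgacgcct
Snord35a: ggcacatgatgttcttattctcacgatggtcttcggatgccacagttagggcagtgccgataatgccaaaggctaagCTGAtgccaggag
Snora73b: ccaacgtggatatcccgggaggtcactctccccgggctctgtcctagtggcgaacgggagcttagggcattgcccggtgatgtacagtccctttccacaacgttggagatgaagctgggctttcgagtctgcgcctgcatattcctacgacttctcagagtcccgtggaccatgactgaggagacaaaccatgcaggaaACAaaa

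The last is a Y RNA, Rny1, at chr6:47788069-47788180 (-) outside annotated genes. It is bound by the Ro and La proteins and is shown, without capitals, because it belongs neither to the spliceosome nor to the snoRNAs.
Rny1: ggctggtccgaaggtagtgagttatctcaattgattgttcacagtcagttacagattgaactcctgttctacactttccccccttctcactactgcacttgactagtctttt

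Total counts ranged from 42114489 to 50886469 in the WT libraries and from 36981439 to 42587815 in the DKO libraries. Members together held 1872 to 2376 of these counts in a WT library and 4103 to 4767 in a DKO library, so most members rest on low counts. Vps13a fell in DKO, from a mean of 1943 ± 130 (SD, n = 4) normalized counts to 794 ± 194 (log2 fold change -1.29, SE 0.17, edgeR adjusted p = 0.00247). Vps13c stood at 583 ± 74.9 and 816 ± 279 (0.49, SE 0.24, adjusted p = 0.182), so its RNA level does not check that label. The Y-linked gene Ddx3y was at 2911 to 3354 in the WT libraries and at 2516 in DKO library 3 but at 9.40 to 41.0 in the other DKO libraries. By this gene the WT libraries and DKO library 3 look male and the other DKO libraries female. Sex and genotype thus largely go together and cannot be told apart here. Of the erythroid markers 0 of 8 were called in either direction, with summed levels of 40074 to 81214 in WT and 31350 to 96899 in DKO, and Klf1 and Gata1 were high in all libraries. Of 5 progenitor markers 3 were lower in DKO, with summed levels of 118780 to 155890 in WT and 11712 to 54501 in DKO. Of 4 mesenchyme markers 3 were higher, with summed levels of 1449 to 4106 in WT and 8053 to 27110 in DKO. Macrophage, neutrophil and endothelial markers each had 1 gene lower (of 6, 3 and 4 tested, with Ly6g at 0 in all libraries), and megakaryocyte and hepatoblast markers had 0 of 4 and 0 of 5 called, although the hepatoblast gene Afp was high in both groups. The part of these differences in the small RNA results was not tested.

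Most small RNA families with transcription units of their own stood far higher in DKO than in WT S0 cells. The other small RNA genes stood somewhat higher. The wide gap was not seen in the sum of U6 copies (ratio 1.41) or in U7 (1.23, groups overlapping). Nor was it seen in Terc, with overlapping groups, or in the RNase P RNA Rpph1, at 607 and 659 normalized counts in WT and DKO. Rnu6 itself had no count, so the U6 sum need not give the level of mature U6. Here a normalized count is a raw count divided by the library's effective size (edgeR's TMM method) and multiplied by the mean effective size. Summed over every annotated gene of the U1, U2, U5, U12, U3, U8, U13, 7SK, Y1 and vault families and their related 7SL, Y3, U7 and U11 genes, whatever their counts (151 genes), the level averaged 182 ± 18.1 in WT and 1887 ± 87.5 in DKO, in these normalized counts, a ratio of 10.3. With the 498 annotated U6 genes added, the sum went from 357 ± 46.2 to 2133 ± 97.4, a ratio of 5.97. Over the 3354 small RNA genes outside the first sum (U6 and Terc among them), the level was 2549.9 ± 191 in WT and 4163 ± 349 in DKO, a ratio of 1.63. Each of these sums was higher in every DKO library than in any WT library. In bulk libraries of sorted cells, a change in the cells captured and a change in RNA per cell cannot be told apart.

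These sums do not depend on the minimum count, which the members themselves do. Of the 33 members in families with genes of their own, 27 reached 40 counts in the DKO libraries alone and not in the WT libraries, so they became members through the group where they are high. Among the 147 members, 48 did so and 9 reached 40 in WT but not in DKO. Genes of these families below the minimum summed to 31.0 ± 6.76 in WT and 113 ± 20.1 in DKO (ratio 3.65), and the other small RNA genes below it to 792 ± 81.5 and 1106 ± 171 (ratio 1.40). The split into families was itself chosen with the values known, and U6, which also has genes of its own, was kept apart with its smaller difference known.

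**Figure D1:**
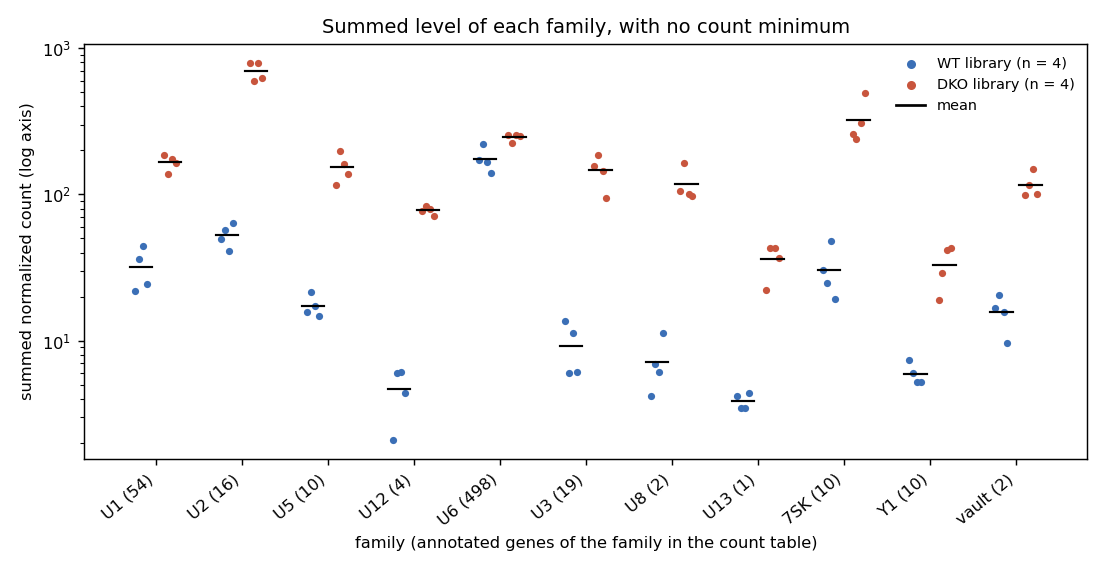
Summed normalized count (log axis) of every annotated gene of each family, with the number of genes in brackets, for 4 WT libraries (blue) and 4 DKO libraries (red), with bars at the means. U2 stands at 52.7 in WT and 701 in DKO, whereas the U6 family, summed over 498 genes with 0 counts at Rnu6 itself, goes from 175 to 246.

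Among the spliceosomal RNAs, the U2 family went from 52.7 ± 9.89 to 701 ± 105 summed normalized counts over 16 annotated genes, a ratio of 13.3. U12 went from 4.64 ± 1.87 to 77.7 ± 5.29 (ratio 16.7), U5 from 17.4 ± 2.96 to 154 ± 35.5 (8.86) and U1 from 31.7 ± 10.4 to 166 ± 20.9 (5.23). In each of these 4 families every DKO library lay above every WT library, and the lowest ratio was that of U1. The annotated copies of U6, the polymerase III partner of these RNAs in the spliceosome, went from 175 ± 33.5 to 246 ± 14.6 over 498 genes. This is a ratio of 1.41, again with no overlap. Rnu6 itself, annotated in 43 identical forms, had no count, and the quality filter drops reads that fit identical copies equally well. The U6 sum thus need not give the level of spliceosomal U6 and is not on a par with the other sums. The U7 gene Rnu7, whose RNA directs histone mRNA 3′ end processing, had 4 raw counts in each genotype, and no U11 gene had a count.

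The U2 gene Gm23849 (chr11:101627366-101627556, plus strand) held 30.5% of the summed counts of all annotated U2 genes in WT and 55.6% in DKO. Its sequence is identical at 4 annotated genes, Rnu2-10 among them. The quality filter drops reads that fit these copies equally well, so the counts left at each copy need not give the level of mature U2. Its normalized counts were 10.5, 23.2, 18.2 and 12.2 in the WT libraries and 460.2, 323, 446 and 328 in the DKO libraries. The lowest DKO library thus stood far above the highest WT library, as the plot of counts by library shows. The mean rose from 16.05 ± 5.83 to 389 ± 73.8 (log2 fold change 4.58, SE 0.34, edgeR adjusted p = 0.000171). Rnu2-10, with the sequence given above, was at 1.05, 2.58, 1.74 and 3.50 in WT and at 83.0, 48.8, 39.1 and 50.2 in DKO (4.55, SE 0.59, adjusted p = 0.00247).

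The diverged U2 copies moved in the same direction. Gm22973, 95.3% identical to Rnu2-10, was at 3.14, 5.16, 3.47 and 13.99 in WT and 77.8, 95.3, 115 and 73.1 in DKO (3.77, SE 0.58, adjusted p = 0.00396). Gm25360, 97.9% identical, was at 17.8, 12.05, 6.95 and 15.7 in WT and 42.0, 46.5, 81.8 and 73.1 in DKO (2.204, SE 0.49, adjusted p = 0.0141). Neither pair of groups overlapped. Of the 9 U2 members, 7 were tested and all 7 were called, and the 2 not tested, Gm24950 and Gm23444, also had groups that did not overlap. Over all genes tested, 6.19% were called higher and 13.5% lay higher in every DKO library. Members such as Rnu2-10, with 10 raw counts in WT and 201 in DKO, were admitted through their DKO counts. These U2 counts are thus partly set by the choice of members.

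Rnu12 encodes the branch-point RNA of the minor spliceosome and has no second copy with counts. Its levels were 2.09, 6.02, 6.08 and 4.37 in WT and 76.7, 83.7, 79.4 and 71.1 in DKO. The DKO libraries lay close together, and the log2 fold change was 4.02 (SE 0.48, adjusted p = 0.00187). Rnu5g, a U5 gene, was at 8.38, 4.30, 2.61 and 5.25 in WT and at 63.0, 70.9, 67.1 and 52.2 in DKO (3.60, SE 0.51, adjusted p = 0.00312). The other 3 tested U5 members, Gm23287, Gm25099 and Gm23143, also rose, by 2.66, 2.98 and 3.05 on the log2 scale.

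U1 was the family with a member that was tested and not called. Rnu1a1, identical in sequence to 6 other annotated genes, was at 4.19, 3.44, 5.21 and 3.50 in WT and at 59.9, 23.2, 39.1 and 33.4 in DKO (3.21, SE 0.55, adjusted p = 0.0055). Gm22068, which shares that sequence and also lies in a Tex14 intron, was at 1.05, 0, 1.74 and 0.874 in WT and 15.8, 16.3, 23.2 and 16.7 in DKO (4.13, SE 0.78, adjusted p = 0.0079). Tex14, a germ-cell gene, was itself at 0 to 4.34 in the WT libraries and 0 to 17.1 in the DKO libraries. Gm24924, a U1 copy within Ss18, was at 10.5, 16.4, 17.4 and 2.62 in WT and 35.7, 19.8, 36.6 and 20.9 in DKO (1.26, SE 0.64, adjusted p = 0.186). Its groups did not overlap although the test was not passed.

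**Figure D2:**
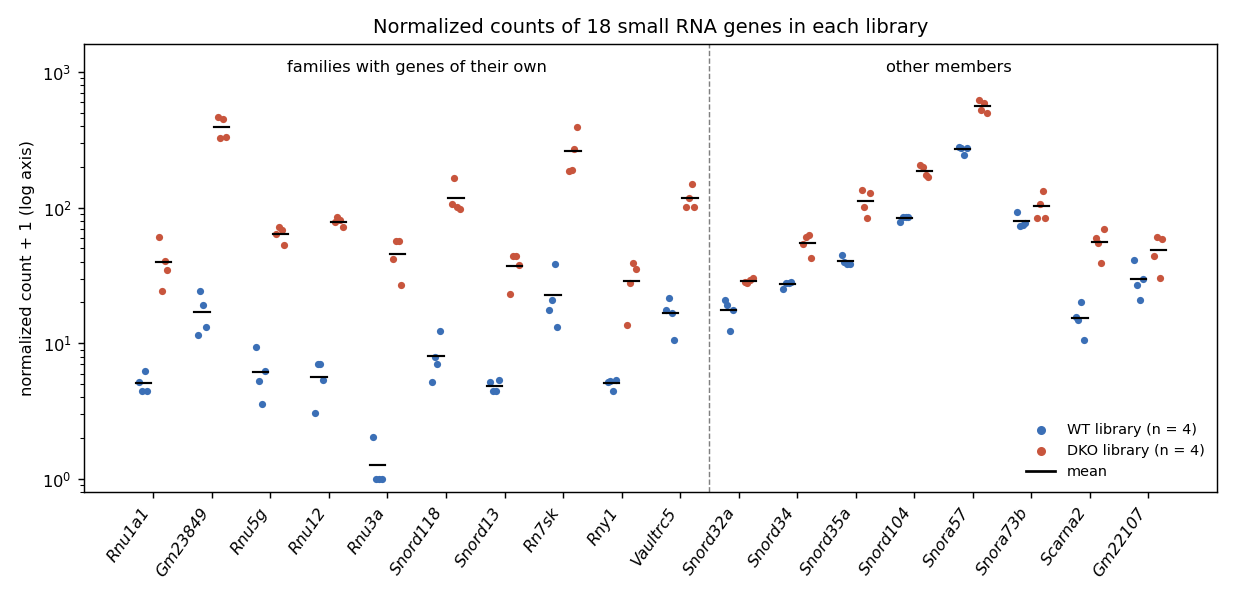
Normalized count plus 1 (log axis) of 18 members in each of 4 WT (blue) and 4 DKO (red) libraries, with bars at the means and a dashed line between families with genes of their own and the other members. The 10 genes on the left, from Rnu1a1 to Vaultrc5, show a wide gap between the groups, while Snora73b and the U6 copy Gm22107 on the right overlap.

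The snoRNAs with genes of their own formed the same pattern on the C/D side. U3, summed over 19 annotated genes, went from 9.26 ± 3.80 to 146 ± 37.9 (ratio 15.7), U8 from 7.13 ± 3.04 to 117 ± 32.1 (16.4) and U13 from 3.87 ± 0.480 to 36.1 ± 9.81 (9.33). In each family every DKO library lay above every WT library. Rnu3a had 1 raw count over the 4 WT libraries and 158 over the 4 DKO libraries, with normalized counts of 1.05, 0, 0 and 0 against 41.0, 55.8, 56.2 and 26.1. Scaled to the effective sizes this is a count ratio of 194, with a 95% counting interval of 34.4 to 7721. The edgeR adjusted p was 0.00257. Rnu3b1, which is annotated under 2 overlapping gene identifiers, had 1 raw count in WT and 109 in DKO under the one that was tested (count ratio 134, 95% interval 23.6 to 5342, adjusted p = 0.00422). Intervals of this kind treat each deposited count as 1 read, although the counts were derived with StringTie, and cover counting error alone.

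Snord118 was at 4.19, 6.89, 6.08 and 11.4 in WT and at 105, 165, 100.1 and 97.2 in DKO (log2 fold change 4.004, SE 0.46, adjusted p = 0.00143). Snord13, the U13 gene, was at 4.19, 3.44, 3.47 and 4.37 in WT and at 22.1, 43.01, 42.7 and 36.6 in DKO (3.18, SE 0.52, adjusted p = 0.005). U13 is held to guide acetylation of 18S ribosomal RNA. The WT libraries of Snord13 were nearly level, and the lowest DKO library was DKO library 1.

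The same direction was seen in RNAs outside splicing and ribosome synthesis. Rn7sk encodes 7SK, which holds the elongation factor P-TEFb inactive. It was at 16.8, 19.8, 37.4 and 12.2 in WT and at 184, 187, 269.8 and 394 in DKO (3.58, SE 0.45, adjusted p = 0.00219). The 7SK copies Gm26035 and Gm24447, 82.2% and 83.4% identical to Rn7sk, rose by 4.83 (SE 0.97, adjusted p = 0.00989) and 4.87 (SE 0.92, adjusted p = 0.0079) on the log2 scale. The 7SK member Gm25580, which was not tested, overlapped between the groups. Reads of a diverged copy and of its parent gene may be hard to place, and how they were divided was not tested.

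Vaultrc5, which encodes the RNA of the vault particle, was at 16.8, 20.7, 15.6 and 9.62 in WT and at 99.8, 116, 149 and 100.3 in DKO (2.88, SE 0.39, adjusted p = 0.00278). Rny1 was at 4.19, 4.30, 3.47 and 4.37 in WT and at 12.6, 26.7, 37.8 and 34.5 in DKO (2.74, SE 0.58, adjusted p = 0.0117). Both had groups that did not overlap. Below the minimum count, Rny3 had raw counts of 5 (WT) and 19 (DKO). The 7SL genes Rn7s1 and Rn7s2, whose RNA is the core of the signal recognition particle, had 2 and 5 in WT and 17 and 12 in DKO. Rmrp, the RNA of RNase MRP and annotated as a ribozyme, had 4 and 26. Rpph1, the RNA of RNase P and also a ribozyme gene, stood at 607 ± 46.7 and 659 ± 142 normalized counts (0.12, SE 0.18, adjusted p = 0.68).

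As a count, 25 of the 26 tested members of families with genes of their own were called higher. A call is an edgeR adjusted p under 0.05 with a log2 fold change above 1. The families were set by sequence identity and include diverged copies such as Gm24924 and Gm26035. Whether each copy is transcribed from a gene of its own was not tested. Over all 17378 genes tested, 6.19% were called higher and 2.43% lower. The median log2 fold change of these 26 was 3.57 (range 1.26 to 6.97), beside 0.03 over all genes tested. Each of the 26 lay higher in every DKO library than in any WT library, a pattern met by 13.5% of all genes in that direction and 14.6% in the other, as did 32 of all 33 members, the exception being Gm25580. These counts describe members that were admitted partly on their DKO counts. Only 5 of the 33 had 40 counts in the WT libraries alone, and of those 5, all tested, 4 were called with a median of 2.88. Over all 33 members of these families, the medians relative to the WT means were 3.04, 3.18, 3.06 and 2.95 in DKO libraries 1 to 4. Library 3, the one with high Ddx3y, lay between the others, but 1 library cannot separate sex from genotype.

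**Figure D3:**
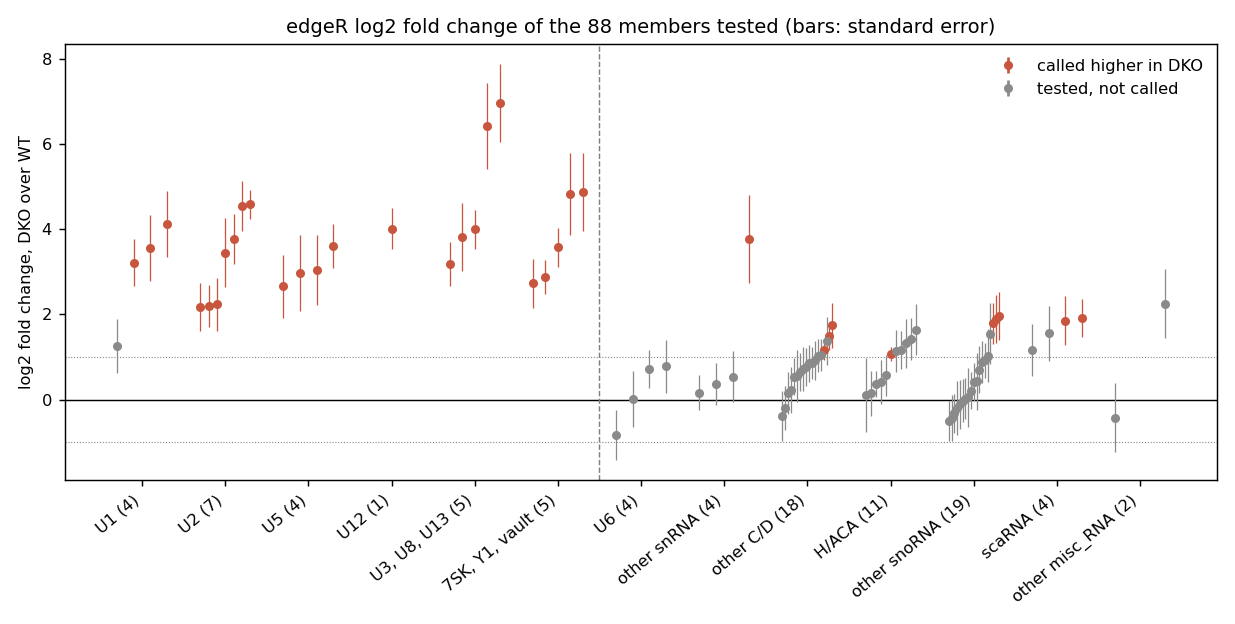
edgeR log2 fold change (DKO over WT) with its standard error for the 88 members tested, by family or class with the number tested in brackets, red where called higher and grey where not. The families to the left of the dashed line reach from 1.26 to 6.97, and the groups to the right have most of their points between 0 and 2.

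The 114 remaining members differed by less. Of these, 62 were tested and 10 were called higher and 0 lower, with a median of 0.72. The shares called over all genes tested were 6.19% higher and 2.43% lower. Of the 55 among them with 40 counts in the WT libraries, 52 were tested, 6 were called, and the median was 0.56. Over all 88 tested members 35 were called higher and 0 lower by edgeR. At an unadjusted p under 0.05 the counts were 47 and 0, and DESeq2 called 48 and 0. With WT library 2 or WT library 4 left out, 23 and 22 members were called, and among the 114 remaining members 3 in either case. Among all 147, the groups did not overlap in 56 members higher in DKO and in 1 lower, beside 13.5% and 14.6% of all genes tested. Of the 147, 48 had reached 40 counts in the DKO libraries and not in the WT libraries. The 1 lower was Gm25926, an snRNA gene in an intron of Fut8 that was not tested. It was at 15.7, 12.9, 6.95 and 6.99 in WT and 6.30, 2.32, 4.88 and 4.18 in DKO.

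By class, 16 of 24 tested snRNA members were called higher, 8 of 23 C/D, 1 of 11 H/ACA, 3 of 19 other snoRNA, 2 of 4 scaRNA and 5 of 7 misc_RNA. Over all genes tested 6.19% were called higher, and the H/ACA count is near that share. Outside the families with genes of their own, 1 of 8 snRNA and 3 of 18 C/D members were called. Of the 33 members of those families, 27 were admitted through their DKO counts. Within the snRNA class, the 6 U6 members had 4 tested and 0 called by edgeR, with 0 also at an unadjusted p under 0.05 and 0 by DESeq2. They are copies 81.3% to 97.2% identical to Rnu6, a gene present in 43 identical annotated forms that had no count. Gm22107, a U6 copy in an intron of the myosin gene Myh9, was at 39.8, 25.8, 19.98 and 28.9 in WT and 43.1, 59.3, 29.3 and 57.5 in DKO (0.72, SE 0.44, adjusted p = 0.271). Gm22060, in an intron of Fli1 and named after its values were seen, was at 20.9, 21.5, 18.2 and 8.74 in WT and 6.30, 5.81, 10.99 and 15.7 in DKO (-0.83, SE 0.59, adjusted p = 0.345). The groups overlapped in both copies.

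Among the C/D members outside the families with genes of their own, 3 of 18 tested were called, with a median log2 fold change of 0.80. Snord104, the C/D member with the highest level per length (1179 normalized counts per kb in WT and 2653 in DKO), lies at chr11:106500993-106501062 outside GENCODE genes and within the RefSeq gene Gm36220. It was at 77.5, 83.5, 84.3 and 84.8 in WT and at 205, 196, 173 and 168 in DKO (1.17, SE 0.24, adjusted p = 0.011). Both groups were tight and well apart. Snord83b, in an intron of the ribosomal protein gene Rpl3 and the third one called, was at 12.6, 10.3, 19.98 and 6.12 in WT and 33.6, 46.5, 52.5 and 32.4 in DKO (1.74, SE 0.52, adjusted p = 0.0407).

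The snoRNAs of Rpl13a allow a comparison within 1 host transcript. Snord35a was at 44.0, 38.7, 37.4 and 37.6 in WT and at 133, 99.97, 83.0 and 127 in DKO (1.49, SE 0.32, adjusted p = 0.0127). Snord34 was at 24.1, 26.7, 26.9 and 27.1 in WT and 52.5, 59.3, 62.3 and 41.8 in DKO (1.04, SE 0.38, adjusted p = 0.0788). Snord32a was at 19.9, 18.1, 11.3 and 16.6 in WT and 27.3, 26.7, 28.1 and 29.3 in DKO (0.75, SE 0.45, adjusted p = 0.257). In all 3 the groups did not overlap, and Snord35a alone passed the test. Rpl13a itself was at 70366 ± 5641 and 98087 ± 7133 (0.48, SE 0.09, adjusted p = 0.0067), below a log2 fold change of 1.

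Other abundant C/D members did not pass the test. Snord17, in Snx5, was at 61.0 ± 23.2 in WT and 88.4 ± 34.1 in DKO (0.53, SE 0.43, adjusted p = 0.412). Snord65 was at 28.6 ± 7.64 and 58.5 ± 5.08 (1.03, SE 0.38, adjusted p = 0.084), with groups that did not overlap.

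Snora57, an H/ACA RNA, had the highest level per length of all members in both genotypes, with 1803 normalized counts per kb in WT and 3761 in DKO. It lies at chr19:8888538-8888685 on the opposite strand of Lbhd1. Its normalized counts were 279.6, 272, 241 and 275 in WT and 622, 521, 587 and 496 in DKO (1.06, SE 0.16, adjusted p = 0.00416). It was the 1 H/ACA member of 11 tested that was called, although 6 of the 11 lay higher in every DKO library. Over all genes tested the shares were 6.19% called higher and 13.5% higher in every DKO library. The sources used here give no strand setting for the counting, so reads of Lbhd1 and of Snora57 cannot be told apart.

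Snora73b (U17), which acts in cleavage of the ribosomal RNA precursor, was at 91.1, 72.3, 73.0 and 76.1 in WT and at 83.0, 106, 132 and 82.5 in DKO (0.37, SE 0.30, adjusted p = 0.424), and the groups overlapped. Snora31 in Tpt1, Snora78 in Snhg9 and the tested Snora43 had log2 fold changes of 1.16, 1.42 and 1.14 with adjusted p of 0.0928, 0.0661 and 0.123. Snora41 in Eef1b2 was at 22.1 ± 4.999 and 32.9 ± 12.96 (0.57, SE 0.48, adjusted p = 0.435). The members Snora43 and Snora16a, like Gm22711 and Rnu3b1, are each annotated under 2 identifiers that share bases, 8 members in all.

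Among snoRNAs without a typed symbol, Gm24616, which overlaps an exon of Eif4a2, was at 16.8, 8.61, 9.56 and 18.4 in WT and 41.0, 54.6, 54.9 and 34.5 in DKO (1.79, SE 0.48, adjusted p = 0.0285). Its groups did not overlap, but the call was lost without any one WT library or without DKO library 2 or 3 (adjusted p 0.0561 to 0.0816). The other 2 called were the identifiers of Gm22711, close to Snord104 on chromosome 11, with log2 fold changes of 1.96 and 1.89. They count largely the same reads. Gm23639 (0.92, adjusted p = 0.135), Gm24888 (0.41, 0.549), Gm24451 (0.21, 0.767), Gm25835 (-0.02, 0.98) and Gm25777 (-0.33, 0.649) were not called. The ACA end was present in 20 of these 46 genes.

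Small Cajal body RNAs guide modification of the spliceosomal snRNAs. Scarna2, which lies at chr3:108554338-108554751 outside annotated genes, was at 14.7, 13.8, 19.1 and 9.62 in WT and 58.8, 53.5, 37.8 and 67.9 in DKO (1.92, SE 0.45, adjusted p = 0.0168). Scarna13, in an intron of Snhg10, was at 9.42, 4.30, 9.56 and 8.74 in WT and 43.1, 13.9, 37.8 and 21.9 in DKO (1.85, SE 0.58, adjusted p = 0.0481). Neither had overlapping groups. The call of Scarna13 was lost without any one library other than DKO library 2 (adjusted p 0.0678 to 0.136), and that of Scarna2 without WT library 1, 2 or 4 (0.0519 to 0.0569). Gm25395 (1.56, SE 0.65, adjusted p = 0.117) and Gm23119 (1.17, SE 0.60, adjusted p = 0.195) did not pass the test and overlapped.

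A few further members have roles or values of their own. Terc, the RNA template of telomerase, was not tested and was at 7.33, 10.3, 6.08 and 3.50 in WT and 8.41, 3.49, 25.6 and 2.09 in DKO, with overlapping groups. Gm27477, a misc_RNA gene of no family searched, was at 6.28, 1.72, 12.2 and 4.37 in WT and 66.2, 8.14, 23.2 and 20.9 in DKO (2.25, SE 0.81, adjusted p = 0.0766). Gm24265, a called snRNA gene of none of the families searched, was at 4.19, 0, 0 and 0.874 in WT and 27.3, 17.4, 10.99 and 15.7 in DKO (3.77, SE 1.02, adjusted p = 0.0291). It was the 1 called snRNA member outside those families. U4 was not among the families searched. Gm24265 is 141 bases long, holds the Sm-like letters and has an annotated copy 98.6% identical. Whether it is a U4 gene was not tested.

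Place in the genome and family overlapped in part. Of the 30 tested members outside annotated genes 23 were called, with a median log2 fold change of 2.81. Of the 47 in introns 9 were called (0.85), of the 7 overlapping an exon 1 (0.03) and of the 4 on the opposite strand of a gene 2 (0.92). Summed over all annotated genes of the 4 types, those outside genes went from 397 ± 29.6 to 1803 ± 40.4 (ratio 4.54). Those within a gene on the same strand went from 1805 ± 150.4 to 3278 ± 293 (1.82). Within introns, 6 of 7 tested members of the families with genes of their own were called and 3 of 40 other members, with median log2 fold changes of 3.82 and 0.72. Outside genes the counts were 18 of 18 and 5 of 12, with medians of 3.51 and 1.17. As given above, 27 of the 33 members of these families were admitted through their DKO counts, and 6.19% of all genes tested were called higher. The sums, which do not use that minimum, had a ratio of 10.5 for these families, both within a gene on the same strand and outside genes. For the other small RNA genes the ratios were 1.52 within a gene and 2.27 outside. Outside here means outside GENCODE genes, and 7 of the 37 members so placed lie inside a RefSeq gene. Snord104, one of these, held 28.6% of the sum of the other small RNA genes outside genes.

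For members inside a gene on the same strand, the host gene gives a second reading of the same locus. In 50 of them, 43 in introns and 7 overlapping an exon, both the RNA and its host were tested, and the ratio of member to host, each plus 1, was taken in every library. The ratio lay higher in every DKO library in 9 of the 50 and lower in 2, against 8.29% and 2.8% of all 965 such nested gene pairs. Leaving out the copies of U1, U2 and U6, 44 pairs remained, in 37 distinct hosts, of which 10 were ribosomal protein genes holding 14 members. In these 44 the ratio was higher in 6 and lower in 2, shares near or somewhat above the background. Their median log2 fold change was 0.68 for the members and 0.30 for the hosts, and the ratio changed by a median of 0.28, beside 0.22 for 915 nested genes that were not members. Across the 44 pairs the Spearman correlation of member and host log2 fold changes was 0.39, a description in which several members share a host and all share the libraries. One host, Snhg9, was called higher (1.27, adjusted p = 0.0103) and none lower.

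**Figure D4:**
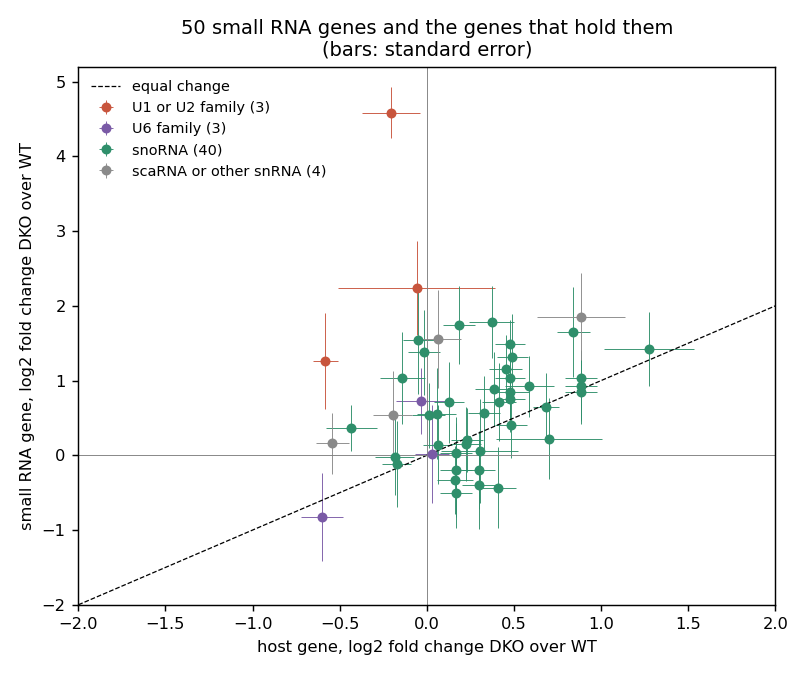
log2 fold change (DKO over WT) of 50 small RNA genes against that of the host gene they lie in, with standard errors and a dashed line of equal change. Gm23849 lies far above the line at 4.58 with its host Rdm1 at -0.21, while most snoRNAs lie within 2 units of the line.

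Single pairs show both patterns. Gm23849 lies in an intron of Rdm1, which was at 684 ± 43.1 in WT and 593 ± 112 in DKO (-0.21, SE 0.17, adjusted p = 0.412). The log2 ratio of the pair went from a mean of -5.39 to -0.60, a change of 4.79 (exact two-sided permutation p = 0.0286, the smallest that 4 against 4 libraries can give, 0.13 after adjustment over the 50 pairs). The same exact permutation p was reached by Snord83b (change 1.57), Snord35a (0.97) and Snora73b (0.80), whose host Rcc1 stood lower in DKO (-0.43, SE 0.15, adjusted p = 0.0602). Snord34 and Snord32a, beside Snord35a in Rpl13a, changed by 0.52 and 0.27 relative to the host (exact permutation p = 0.0571 and 0.229). The 2 lower ratios were those of Gm25777 in Ranbp1 (-0.46) and Snord7 in AA465934 (-0.47).

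The proteins that make, assemble and degrade these RNAs were examined in 15 lists of 161 tested genes. Of these, 1 was called higher and 0 lower by edgeR. At an unadjusted p under 0.05 the counts were 18 and 38, and DESeq2 called 1 and 0. The one called was Rpp25, a protein of RNase P and RNase MRP, which went from 19.6 ± 11.4 to 89.9 ± 50.4 (2.19, SE 0.61, adjusted p = 0.0318). No protein gene was called without WT library 1, 2 or 4 or without DKO library 1 or 3. With the adjusted p alone and no fold threshold, 10 were higher and 27 lower, against 10.7% and 10.8% of all genes tested. The median over the 161 genes was -0.03.

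The Integrator complex cuts the 3′ ends of U1, U2 and the other polymerase II snRNAs. Of its 14 genes 7 were lower at an adjusted p under 0.05 and 0 higher, and the median over the list was -0.43 on the log2 scale. They were Ints9 (-0.71, SE 0.10, adjusted p = 0.00346), Ints2 (-0.63), Ints4 (-0.56), Ints14 (-0.55), Ints13 (-0.53), Ints7 (-0.48) and Ints10 (-0.46). None of them passed the fold threshold. Among the 10 genes for transcription of snRNA genes, Ell and Snapc2 were lower (-0.33 and -0.32).

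The Sm and LSm proteins, which form rings on snRNAs, went the other way in part. Of 17 genes 4 were higher and 0 lower, with a median of 0.20: Lsm7 (0.69), Lsm4 (0.46), Snrpd2 (0.44) and Snrpf (0.36). In the SMN complex, which loads these rings, 4 of 12 were lower, led by Gemin4 (-0.70). Of 18 proteins specific to single snRNPs, Eftud2 (-0.62), Prpf8 (-0.44) and Prpf3 (-0.32) were lower and Zcrb1 (0.29) was higher. Of 6 export and import genes, Kpnb1 (-0.35) was lower.

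Of the 5 core box C/D proteins none differed at that threshold, with a median of 0.17. Of the 6 box H/ACA proteins Gar1 was higher (0.63, SE 0.17, adjusted p = 0.030). None of the 12 snoRNP assembly genes differed. Of 24 tested genes for end processing and decay, 7 were lower, led by Parn (-0.52) and Dbr1 (-0.43), and 2 higher, Zcchc7 (0.45) and Mphosph6 (0.32). Of 7 proteins of the 7SK particle Cdk9 was higher (0.35), of 6 signal recognition particle proteins Srp68 was lower (-0.49), and of 10 partners in ribosomal RNA modification Utp15 (-0.52) and Nat10 (-0.34) were lower. None of the 4 Ro, La and vault genes differed, and in the list of 10 RNase P and MRP proteins Rpp25 was the one that did.

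**Figure D5:**
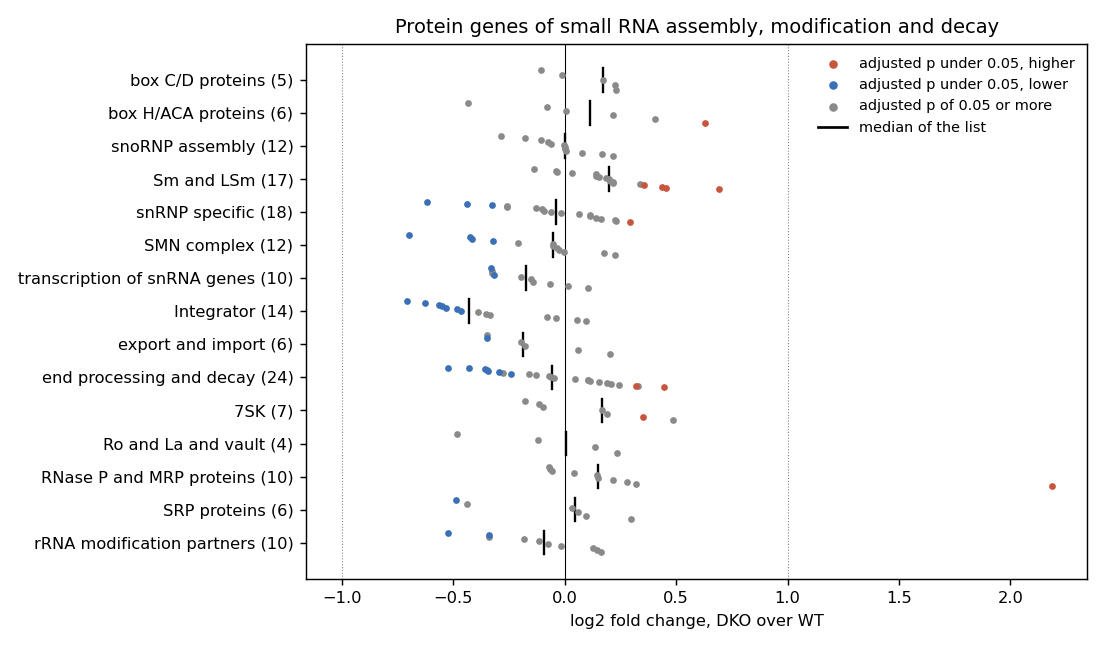
log2 fold change (DKO over WT) of 161 protein genes in 15 lists, with the number tested in brackets, red or blue where the adjusted p was under 0.05 and grey elsewhere, with a bar at each list's median. The Integrator list has the lowest median, -0.43, and Rpp25 at 2.19 is the one gene past a log2 fold change of 1.

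Another group of RNAs that mostly lack a poly(A) tail moved beside the small RNAs. Of 62 tested replication-dependent histone genes 39 were called higher in DKO and 0 lower, beside 6.19% and 2.43% of all genes tested. Their median change was 1.61 on the log2 scale. Their medians in DKO libraries 1 to 4 were 1.61, 1.48, 1.74 and 1.48 relative to the WT means. The part of whatever sets the histone levels in the small RNA results was not tested.

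Around the minimum summed count, the 2 members at exactly 40 were Gm23202 (19 raw counts in WT and 21 in DKO) and Snord37 (14 and 26). The 5 genes just outside, at 39, were Gm22304 (11 and 28), Gm24289 (23 and 16), Gm24507 (24 and 15), Gm25082 (16 and 23) and Gm27782 (24 and 15). Rnu1b6, a U1 gene, fell outside with 4 and 31. Most annotated genes of these types had no count at all: 1014 of 1385 snRNA genes, 1007 of 1507 snoRNA genes, 19 of 51 scaRNA genes and 384 of 562 misc_RNA genes.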

How the data were processed

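The deposited file is 1 table of raw gene counts for 8 libraries, 4 per genotype. Per the submitters' processing notes and the study's methods, the authors trimmed 150-base paired reads with fastp 0.21.0, aligned them to mm10 with HISAT2 2.2.1, removed alignments with a quality under 20 and derived counts per gene with StringTie 1.3.3b. That filter drops reads that fit several copies equally well, so genes with identical copies can be counted low. Gene types, positions and sequences came from GENCODE vM21, which matched 52489 of 52636 identifiers. The strand setting of counting is not given in the sources used here.

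Counts were tested with edgeR 4.0.16 (quasi-likelihood, TMM, WT and DKO libraries, no covariate, filterByExpr, Benjamini-Hochberg over 17378 genes) in R 4.3.3. Calls required a log2 fold change beyond ±1 at an adjusted p below 0.05. Families hold genes at least 80% identical to a reference gene, and U4 was not among the families searched. Membership rests on sequence alone, so a copy in these families need not be transcribed from a gene of its own. Host ratios used a pseudocount of 1 and exact two-sided permutation tests. The fit was checked on simulated counts. Alternatives were DESeq2 1.42.0, other scalings, filters and minimum sums, halved counts, a replicate block and leaving out each library.

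The members and all gene lists were chosen with earlier results of these data known. Genes named are the 6 highest of each class, the 6 largest calls with at least 10 normalized counts in both genotypes, members of known role, those at the minimum count, host genes and the called or largest genes of the protein lists. Genes named beyond this rule were picked after their values were seen (a few items are not reported here): the other U1, U2, U5 and U3 copies, Gm24924, Gm24265, Gm25926, Gm22060, Snord83b, Gm22711, Rmrp and Snord7.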

Additional observations from a re-analysis of the deposited data

Results flagged for a closer look

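In 104 groups of 4 libraries (named members, sums over classes, and Vps13a and Vps13c, in each genotype), 9 had 1 library far from the other 3, by Dixon's criterion. Chance flags about 1 group in 20. Snord118 reached 165 in DKO library 2, against 97.2 to 105 in the other DKO libraries, all far above WT. Gm24447, a 7SK copy, reached 39.7 in DKO library 4 against 17.1 to 17.9. Under its second identifier Rnu3b1 reached 44.2 in DKO library 2 against 3.13 to 4.20, while under the first that library was the lowest of the 4, and the 2 identifiers overlap. In WT, Gm25835 was at 12.2 in library 3 against 28.9 to 30.4, Scarna13 at 4.30 in library 2 against 8.74 to 9.56, and Snord34 at 24.1 in library 1 against 26.7 to 27.1. Rnu3a at 1.05 in WT library 1 and Rnu3b1 at 0.874 in WT library 4 under both identifiers are single raw counts beside libraries at 0.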

How the results depend on the processing

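The counts of calls depended on the processing and their direction did not: 0 members were called lower in any setting. Members called higher (35) became 23 with no low-count filter, 13 with at least 10 counts in every library, 19 with counts divided by 2, 48 with DESeq2 and 22 to 29 with 1 library left out. For families with genes of their own (25) the values were 3 at 10 counts in every library, which few of them reach in WT, 13 at counts divided by 2 and 19 to 23 with 1 library left out. For the other members (10) they were 18 with DESeq2, 4 with no filter, 6 with counts divided by 2, 5 with protein-coding genes and members only, and 3 to 7 with 1 library left out (3 without WT library 2 or 4, 4 without WT library 1, 5 without DKO library 1 or 3, 6 without WT library 3 or DKO library 2). snRNA calls (16) became 9 with no filter, 1 at 10 counts, 8 with counts divided by 2 and 9 to 13 with 1 library left out (9 without WT library 4, 10 without WT library 2). C/D calls (8) became 4 at 10 counts in every library and 7 to 8 with 1 left out, and H/ACA calls (1) became 4 with DESeq2 and at 10 counts. Scarna13 lost its call without any one of 7 libraries (adjusted p up to 0.136), Gm24616 without any one of 6 (up to 0.0816) and Scarna2 without WT library 1, 2 or 4 (up to 0.0569). Protein genes called higher (1) were 10 and those lower (0) were 27 with no fold threshold, and Rpp25 lost its call in 5 of 8 fits with 1 library left out (0 to 1 calls).

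The replicate numbers do not pair the libraries: correlations of same-numbered libraries were -0.10, 0.05, -0.03 and -0.007. With a replicate block, calls became 17 of all members, 16 of families with genes of their own, 1 other member (Snora57), 7 snRNA, 5 C/D and 0 protein genes. Named members lost were Gm25360, Rny1, Snord104, Snord35a, Gm24616, Scarna2 and Scarna13, with adjusted p of 0.0543 to 0.107 under the block.

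Upper-quartile scaling put the median of all genes at 0.14 instead of 0.03. The ratio of summed levels became 12.6 (from 11.7) for families with genes of their own, 1.87 (from 1.74) for other members and 1.62 (from 1.505) for untyped snoRNAs. With U6 members counted with the families that have genes of their own, a grouping chosen after seeing the data, the ratio was 8.07 for these families and 1.76 for the other members, and the calls stayed at 25 and 10. Without its most abundant member, the ratio was 3.28 (from 4.43) for snRNA, 1.62 (from 1.87) for H/ACA, 3.44 (from 5.11) for misc_RNA and 10.2 for families with genes of their own. Host ratios above in every DKO library (9) numbered 9 to 15 with 1 library left out (15 without WT library 1, 14 without DKO library 4), and those below (2) numbered 1 with a pseudocount of 0.5 and 2 to 4 with 1 left out (4 without WT library 3 or DKO library 2). Gm25835, near 0 throughout, was at 0.0894 under upper-quartile scaling, 0.00407 with the replicate block, 0.0101 with protein-coding genes and members only and -0.26 to 0.14 with 1 library left out. The cause of these differences was not tested. Low counts limit all of these results, since most members of families with genes of their own had under 10 normalized counts per WT library.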
